A study of Homo sapiens with 4 samples.

Results

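Receptor protein tyrosine phosphatases are single-pass membrane proteins that remove phosphate from tyrosine on substrates inside the cell. The 10 genes PTPRF, PTPRS, PTPRD, PTPRU, PTPRM, PTPRK, PTPRG, PTPRA, PTPRE and PTPRC were taken by symbol from a count table of 35606 genes. They were chosen from results of the same comparison that is described here, so their differences between groups are a description and carry no test. Of these 10 genes, 6 had enough counts to enter the fit across all genes. Poly(A)-selected RNA-seq was made from K562, an established line grown from a human chronic myeloid leukaemia, which has erythroid traits and carries the BCR-ABL tyrosine kinase fusion. One group was labelled JAZF1-SUZ12, for cells expressing a gene fusion known from endometrial stromal sarcoma that joins a partner of the NuA4/TIP60 acetyltransferase complex to the Polycomb subunit SUZ12, and the other was labelled mock. Each group had 2 libraries, numbered 1 and 2, of between 17260936 and 24423028 estimated counts. The labels give no treatment, time or clone, do not say how the fusion was delivered or what the mock cells received, and do not say whether the libraries came from separate cultures, so p-values measure only the spread between these libraries, which may be technical.

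In the family, the extracellular part decides what the protein meets and the intracellular part carries the catalytic activity, usually in a tandem of phosphatase domains of which the first is the active one. PTPRF (LAR), PTPRS and PTPRD form the LAR subfamily, which binds heparan sulfate proteoglycans and synaptic adhesion proteins outside the cell and liprins inside it. PTPRU, PTPRM, PTPRK and PTPRT carry a MAM domain and are known for cell-cell contacts. PTPRC (CD45) marks nucleated blood cells, where it activates Src-family kinases by removing their inhibitory phosphate, and PTPRA acts on Src in many tissues.

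The source label names the uterus, whereas the cell line is K562. The erythroid markers were abundant in every library, and their summed level over 12 genes was between 12821 and 13116 CPM (counts scaled to the library total) in mock and between 14835 and 15023 CPM in JAZF1-SUZ12. The 9 uterine stromal markers summed to between 14.4 and 15.0 CPM in mock and between 32.2 and 33.3 CPM in JAZF1-SUZ12. The higher sum was mostly that of COL1A1, with a mean of 5.79 CPM in mock against 21.4 CPM in JAZF1-SUZ12. PGR, at 4.60 and 6.40 CPM, and COL1A2, at 2.86 and 3.46 CPM, were not called. Each of the others had at most 20 counts in any library, and LUM was at 0 in every library. The 7 epithelial markers summed to between 1463 and 1488 CPM in mock and between 1555 and 1567 CPM in JAZF1-SUZ12. The 11 leukocyte markers summed to between 90.4 and 96.1 CPM in mock and between 68.6 and 71.7 CPM in JAZF1-SUZ12, and the 8 neural markers to between 60.6 and 61.2 CPM in mock and between 87.7 and 93.8 CPM in JAZF1-SUZ12. The higher neural sum was that of SYP, with a mean of 39.4 CPM in mock against 71.8 CPM in JAZF1-SUZ12, since TUBB3 was at 19.0 and 16.9 CPM, GFAP at 2.20 and 1.97 CPM and each of the other 5 at most at 7 counts in any library. The edgeR test called 5 erythroid markers, COL1A1, KRT19 and SYP higher, and LYZ, CD68 and EPCAM lower. KRT5, CD2, MS4A1, NEFL and NEFM were at 0 in every library. The part of these markers in the results below was not tested. As a check of the labels, JAZF1 had 12 and 27 counts in mock and 574 and 731 in JAZF1-SUZ12, and SUZ12 had 2781 and 2798 counts in mock and 4754 and 6582 in JAZF1-SUZ12.

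The start regions of 4 members are shown, because 3 of these genes had the higher levels in JAZF1-SUZ12 libraries and the fourth, PTPRC, was the most abundant member and did not. Each is the 300 bases from 250 before to 50 after the RefSeq start on GRCh38.p14, written 5′ to 3′ on the strand of the gene, and capitals mark every CG dinucleotide, the site of DNA methylation. They lie at chr1:43530633-43530932 (plus strand), chr1:29236272-29236571 (plus), chr19:5340763-5341062 (minus) and chr1:198638790-198639089 (plus).
PTPRF: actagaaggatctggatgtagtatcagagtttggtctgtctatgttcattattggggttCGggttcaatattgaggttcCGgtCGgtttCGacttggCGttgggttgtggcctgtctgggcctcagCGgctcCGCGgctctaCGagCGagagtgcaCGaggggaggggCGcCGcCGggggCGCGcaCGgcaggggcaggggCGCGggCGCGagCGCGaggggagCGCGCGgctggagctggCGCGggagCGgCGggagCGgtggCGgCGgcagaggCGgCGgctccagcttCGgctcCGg
PTPRU: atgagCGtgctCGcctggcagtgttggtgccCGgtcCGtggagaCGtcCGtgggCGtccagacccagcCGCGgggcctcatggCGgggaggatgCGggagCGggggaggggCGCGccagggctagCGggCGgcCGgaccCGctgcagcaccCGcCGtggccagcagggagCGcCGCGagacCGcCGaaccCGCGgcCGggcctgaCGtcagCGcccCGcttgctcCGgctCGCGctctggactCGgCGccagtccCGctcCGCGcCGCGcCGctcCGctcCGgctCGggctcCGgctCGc
PTPRS: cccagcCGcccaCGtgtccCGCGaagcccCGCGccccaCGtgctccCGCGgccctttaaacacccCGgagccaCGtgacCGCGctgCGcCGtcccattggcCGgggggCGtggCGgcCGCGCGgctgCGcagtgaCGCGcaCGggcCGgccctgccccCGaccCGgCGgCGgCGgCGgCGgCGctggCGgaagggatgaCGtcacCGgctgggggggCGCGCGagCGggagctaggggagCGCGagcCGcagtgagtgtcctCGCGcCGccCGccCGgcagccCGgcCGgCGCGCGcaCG
PTPRC: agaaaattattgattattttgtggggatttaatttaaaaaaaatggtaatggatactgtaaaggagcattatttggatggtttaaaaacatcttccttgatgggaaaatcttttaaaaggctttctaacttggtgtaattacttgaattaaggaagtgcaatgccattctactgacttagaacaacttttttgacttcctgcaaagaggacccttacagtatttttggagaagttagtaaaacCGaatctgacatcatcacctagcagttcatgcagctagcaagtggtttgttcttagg

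CG dinucleotides numbered 37 in the PTPRF window, 47 in that of PTPRU and 55 in that of PTPRS. The PTPRC window held 1. Over all 35116 promoter windows of the same length the median was 14, with quartiles at 4 and 28. PTPRS had more than 99.6% of all windows, PTPRU more than 97.6% and PTPRF more than 88.7%, whereas PTPRC had more than 3.96%. The GC content of the windows was 68.7% for PTPRF, 78.7% for PTPRU, 81.3% for PTPRS and 33.7% for PTPRC, beside a median of 58.7% over all windows. A CG-rich start was shared with members that were barely counted. In all, 17 windows were found for the 10 members, and 9 of the 10 had at least 1 window above the upper quartile, PTPRC being the exception. PTPRK, with 44 CG dinucleotides, PTPRG with 34, PTPRM with 50 and PTPRD with 40 in their richest windows had at most 9 counts in any library. A high CG content therefore did not separate the members that were counted from those that were not.

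Short motifs were counted on both strands. The GC box GGGCGG, which holds a CG dinucleotide and so overlaps that count, was found 3 times in the PTPRS window, 1 time in that of PTPRU and in neither the PTPRF nor the PTPRC window. It was present in 8 of the 17 windows and in 45.0% of all windows. AGATAA, the core bound by GATA factors, was in 2 of the 17 windows and in 10.3% of all, and the TATA box TATAAA in 3 of the 17 and in 11.5% of all. Neither AGATAA nor TATAAA was in the 4 windows printed above.

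PTPRF and PTPRU were about 3-fold higher in JAZF1-SUZ12 than in mock libraries, PTPRS was higher by about a 1.35-fold ratio, and PTPRA and PTPRC were nearly level. PTPRE and PTPRM were counted at a few reads, PTPRG and PTPRK at 3 or fewer, and PTPRD at 0. Of the 6 members in the fit, 3 had an adjusted p under 0.05 in the edgeR quasi-likelihood test, all higher, and none was lower. Over all 14750 genes tested, 24.7% passed, 13.3% higher and 11.4% lower. The levels of 4 of the 6 did not overlap between groups and were higher, beside 33.8% of all genes tested, and those of 1 did not overlap and were lower, beside 27.2%. PTPRE, 1 of these 4, entered the fit through the JAZF1-SUZ12 group, since 1 of its mock libraries was below the filter's level of 0.479 CPM. Since the same comparison chose the members, nothing is read from these counts. In bulk RNA, more RNA per cell and more cells of a type cannot be told apart.

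**Figure D1:**
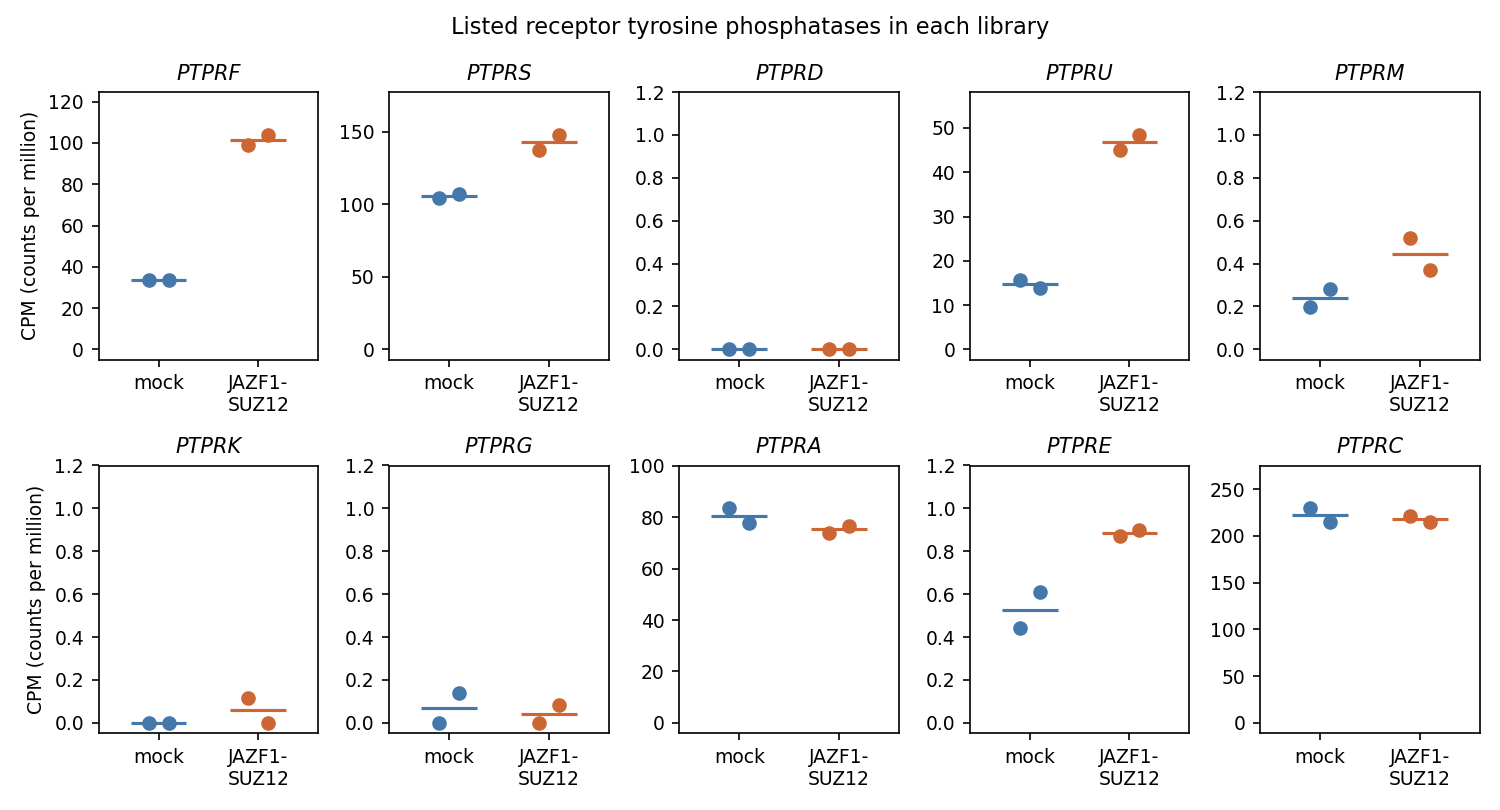
Level of each of the 10 listed genes in CPM (y axis, linear, own scale per gene) in the 2 mock and 2 JAZF1-SUZ12 libraries. Points are libraries and bars are group means. PTPRF, PTPRS and PTPRU sit higher in both JAZF1-SUZ12 libraries, PTPRA and PTPRC are nearly level, and PTPRD is at 0 throughout.

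PTPRF (ENSG00000142949; GRCh38 chromosome 1, 43525187 to 43623666, plus strand), the founding LAR phosphatase, was counted 686 and 717 times in mock, 1710 and 2538 times in JAZF1-SUZ12. The levels within a group were close together and the groups were far apart. Its level was 33.6 ± 0.080 CPM in mock against 101 ± 3.43 CPM in JAZF1-SUZ12 (SD, n = 2 each), a 3.02-fold ratio. The log2 fold change was 1.57 ± 0.06 (SE). In the authors' deposited table it was 1.58 ± 0.11 (SE).

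PTPRS (ENSG00000105426; chromosome 19, 5158495 to 5340803, minus strand), the LAR-family receptor known for binding heparan and chondroitin sulfate chains, had 2140 and 2286 counts in mock and 2374 and 3613 in JAZF1-SUZ12 libraries. In CPM the mock libraries were at 105 and 107, those of JAZF1-SUZ12 at 138 and 148, so both of the latter were higher. The log2 fold change was 0.41 ± 0.05 (SE). The authors' deposited table gave 0.24 ± 0.09 (SE), and there PTPRS did not pass 0.05 (adjusted p = 0.0719).

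PTPRD (ENSG00000153707; chromosome 9, 8314246 to 10612723, minus strand), the third LAR-family gene and a receptor known mainly from neurons, had 0 counts in all 4 libraries. A count of 0 allows up to 3 counts, between 0.123 and 0.174 CPM at these depths. The annotated gene spans 2298 kb, the longest of the 10. The LAR subfamily was thus represented by PTPRF and PTPRS alone at this depth. Per length, as TPM (counts per base of the longest GENCODE transcript, scaled to a common total), the ratio of PTPRF to PTPRS in mock was 0.264 and 0.258, and in JAZF1-SUZ12 0.592 and 0.578.

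PTPRU (ENSG00000060656; chromosome 1, 29236516 to 29326813, plus strand), a MAM-domain receptor that has been described as lacking catalytic activity, had 322 and 295 counts in mock and 779 and 1183 in JAZF1-SUZ12 libraries. Its level was 14.8 ± 1.34 CPM in mock against 46.8 ± 2.34 CPM in JAZF1-SUZ12 (SD, n = 2 each), a 3.16-fold ratio, and the groups were well separated. The log2 fold change was 1.64 ± 0.09 (SE). The authors' deposited table gave 0.92 ± 0.17 (SE), a smaller change. What adjustments the deposited values include is not given in the sources used here, so the 2 values may not measure the same quantity. DESeq2 run on the counts gave 1.64, close to the value from edgeR on the same counts.

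The other MAM-domain members were at or near the limit of counting. PTPRM had 4 and 6 counts in mock and 9 in each JAZF1-SUZ12 library, too few to enter the fit. PTPRK had 0 counts in mock and 2 and 0 in JAZF1-SUZ12 libraries. Both are known for homophilic adhesion, in which the ectodomain binds the same protein on a neighbouring cell. PTPRT, the fourth MAM-domain gene and no member of the list, had 0 counts in every library, so PTPRU was the single gene of the subfamily with more than 9 counts in a library.

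PTPRG (ENSG00000144724; chromosome 3, 61561569 to 62297613), whose product has been described as acting on BCR-ABL, had 0 and 3 counts in mock and 0 and 2 in JAZF1-SUZ12 libraries. It was at the floor of 3 counts in every library, and no fold is given. PTPRZ1, the related receptor of the nervous system that binds pleiotrophin and midkine, had 3 and 12 counts in mock and 12 and 17 in JAZF1-SUZ12 libraries. Its log2 fold change of 0.93 had a standard error of 0.67 and was not called (edgeR, adjusted p = 0.347). Leaving out mock replicate 1 brought it to 0.28, and leaving out mock replicate 2 to 2.19.

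PTPRA (ENSG00000132670; chromosome 20, 2864184 to 3039076, plus strand), which removes the inhibitory phosphate of Src, had 1706 and 1655 counts in mock and 1275 and 1874 in JAZF1-SUZ12 libraries. Its level was 80.6 ± 4.05 CPM in mock against 75.3 ± 2.03 CPM in JAZF1-SUZ12 (SD, n = 2 each). Both JAZF1-SUZ12 libraries, at 73.9 and 76.7 CPM, were below both mock libraries, at 83.4 and 77.7 CPM, by a small margin. The log2 fold change was -0.12 ± 0.06 (SE), and it was -0.06 without mock replicate 1. PTPRA overlaps VPS16 on the same strand, which had between 580 and 847 counts, and counts of the 2 genes could be exchanged where they share exons.

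PTPRE, the closest relative of PTPRA, had 9 and 13 counts in mock and 15 and 22 in JAZF1-SUZ12 libraries. The log2 fold change of 0.72 had a standard error of 0.54, and in the authors' deposited table it was 0.28 ± 1.02 (SE). PTPRA was therefore the abundant gene of this pair in both groups.

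PTPRC (ENSG00000081237; chromosome 1, 198638457 to 198757476, plus strand) had 4691 and 4579 counts in mock and 3823 and 5243 in JAZF1-SUZ12 libraries. Its level was 222 ± 10.2 CPM in mock against 218 ± 4.81 CPM in JAZF1-SUZ12 (SD, n = 2 each), and the groups overlapped. The log2 fold change was -0.05 ± 0.05 (SE). It was 0.0011 without mock replicate 1, and 0.10 ± 0.08 (SE) in the authors' deposited table, so its sign was not settled. PTPRCAP, the small protein that associates with CD45, had 0 and 2 counts in mock and 7 and 14 in JAZF1-SUZ12 libraries. Its JAZF1-SUZ12 mean in CPM was 3.40 times a mock floor of 3 counts per library, which is no lower limit of the fold. PTPRCAP did not enter the fit and was picked out after its values were seen.

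Set beside the remaining family by level per length, the members differed widely. PTPRC was first of 20 receptor phosphatase genes in every library, at 101 ± 4.94 TPM in mock and 98.5 ± 1.58 TPM in JAZF1-SUZ12 (SD, n = 2 each). In mock PTPRA followed at 53.0 ± 2.82 TPM, PTPRS at 40.9 ± 0.605, PTPRH, which is not a member, at 25.5 ± 0.771 and PTPRF at 10.7 ± 0.0064 (SD, n = 2 each). In JAZF1-SUZ12 libraries PTPRS at 54.7 ± 3.15 TPM stood above PTPRA at 49.2 ± 1.62, and PTPRF at 32.0 ± 1.27 above PTPRH at 23.4 ± 1.41 (SD, n = 2 each). Neither of these pairs overlapped over the 2 libraries of a group. In CPM, PTPRS stood above PTPRA in mock too, at 106 ± 1.89 against 80.6 ± 4.05 (SD, n = 2 each). The order of PTPRS and PTPRA in mock therefore depends on the transcript length used. PTPRU was at 6.50 ± 0.608 TPM in mock, where its libraries overlapped those of PTPRJ, and at 20.4 ± 1.14 TPM in JAZF1-SUZ12 (SD, n = 2 each). The order among PTPRE, PTPRM, PTPRG, PTPRK and PTPRD rests on at most 22 counts a library.

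The family total in TPM was 259 and 251 in mock, 302 and 314 in JAZF1-SUZ12. The 10 members made up between 82.4% and 84.2% of it in every library. The share of PTPRC in the family total was 39.6% ± 1.11 in mock and 32.0% ± 1.38 in JAZF1-SUZ12, and that of PTPRA 20.8% ± 0.675 and 16.0% ± 0.0921 (SD, n = 2 each). PTPRF made up 4.18% ± 0.0846 in mock and 10.4% ± 0.132 in JAZF1-SUZ12, and PTPRU 2.55% ± 0.186 and 6.63% ± 0.191 (SD, n = 2 each). The counts of PTPRC were 6.84 and 6.39 times those of PTPRF in mock, and 2.24 and 2.07 times in JAZF1-SUZ12.

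**Figure D2:**
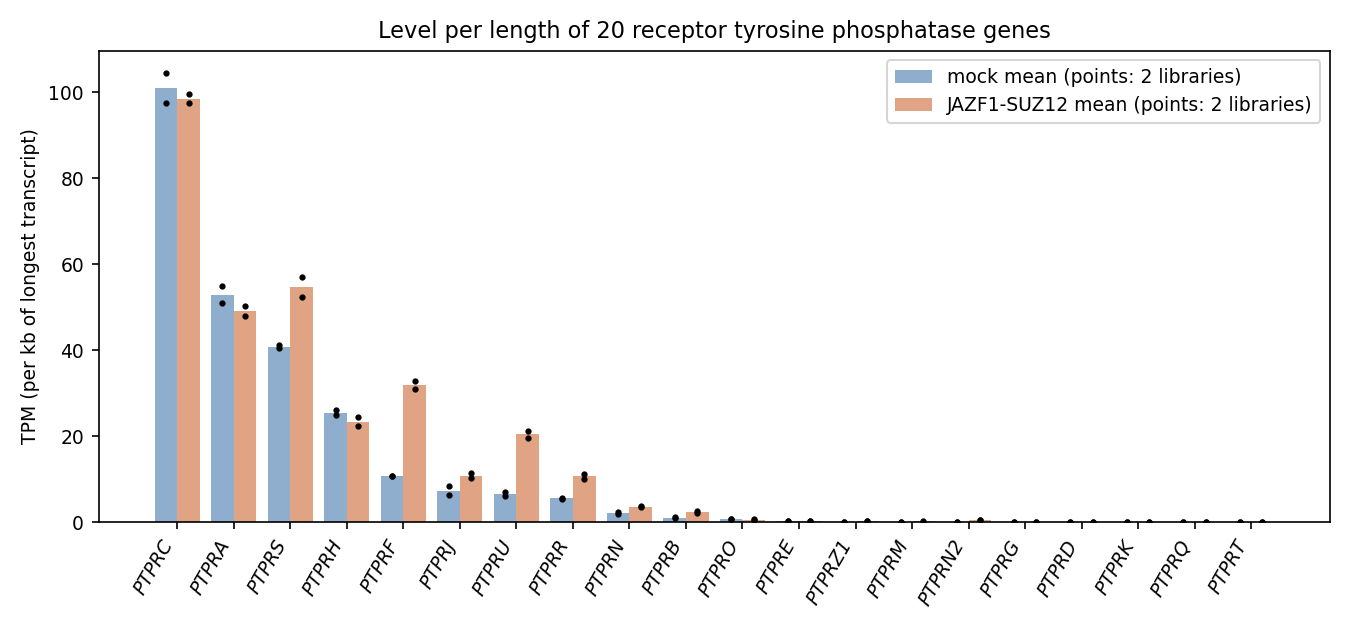
Level per length (y axis, TPM from the longest GENCODE transcript) of 20 receptor tyrosine phosphatase genes, ordered by their mean in mock. Bars are group means and points the 2 libraries of each group. PTPRC is highest in both groups, PTPRF and PTPRU move up, and PTPRS and PTPRA change places, which they do not in CPM.

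The rest of the family was taken whole as a second list of 10 genes and read from the same fit. Of the 8 with enough counts, 5 were called higher, PTPRB, PTPRR, PTPRJ, PTPRN and PTPRN2, and none lower. PTPRH, PTPRO and PTPRZ1 did not pass. For scale, 13.3% of the 14750 genes in the fit passed as higher and 11.4% as lower. The median log2 fold change of the 8 was 0.82, against 0.0032 over all genes tested. PTPRN2 and PTPRZ1 reached the filter's level in both JAZF1-SUZ12 libraries but not in both mock libraries. Without them 4 of 6 were called higher, and the median was 0.63. PTPRQ, a receptor of inner-ear hair cells, and PTPRT had 0 counts in all libraries.

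PTPRB, the vascular endothelial phosphatase, had 114 and 111 counts in mock and 229 and 271 in JAZF1-SUZ12 libraries, and its groups did not overlap. Its log2 fold change was 1.15 (SE 0.16; edgeR, adjusted p = 9.86e-05). PTPRR, which binds MAP kinases through a docking motif, had 169 and 168 counts in mock and 255 and 398 in JAZF1-SUZ12 libraries. Its log2 fold change was 0.92 (SE 0.13; edgeR, adjusted p = 9.91e-05). These 2 genes are neighbours on chromosome 12, both on the minus strand, with 632 bases between their annotated ends.

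PTPRJ (CD148), a receptor of blood cells and epithelia, was at 23.6 ± 4.94 CPM in mock against 34.9 ± 2.21 CPM in JAZF1-SUZ12 (SD, n = 2 each; log2 fold change 0.54, edgeR adjusted p = 0.00182). The value for PTPRJ was 0.35 when mock replicate 1 was left out and 0.78 when mock replicate 2 was. PTPRN, the catalytically inactive IA-2 of secretory granules, had 84 and 106 counts in mock and 129 and 190 in JAZF1-SUZ12 libraries. Its log2 fold change was 0.72 (SE 0.19; edgeR, adjusted p = 0.00954). Without mock replicate 1 PTPRN no longer passed (0.60, adjusted p = 0.072). PTPRN2, its granule paralog, had 0 and 2 counts in mock and 16 and 20 in JAZF1-SUZ12 libraries (edgeR, adjusted p = 0.00453). Its JAZF1-SUZ12 mean in CPM was 6.07 times a mock floor of 3 counts per library, which is no lower limit of the fold. Since PTPRN2 passed the filter through the JAZF1-SUZ12 group alone, it had to differ, and the authors' deposited table did not call it (adjusted p = 0.0727). PTPRH, the most abundant gene of this second list, was at 40.4 ± 1.34 CPM in mock against 37.2 ± 2.01 CPM in JAZF1-SUZ12 (SD, n = 2 each; edgeR, adjusted p = 0.189).

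The authors' deposited table held 9 of the 10 members, all but PTPRD, and gave no adjusted p for PTPRK and PTPRG. It held 8 genes of the second list, all but PTPRQ and PTPRT. In it 2 members, PTPRF and PTPRU, and 4 of the second list, PTPRB, PTPRJ, PTPRN and PTPRR, passed 0.05, all higher. Of the 15895 genes with an adjusted p in the authors' deposited table, 4.93% were called higher and 3.57% lower. Values from that table and from the counts lay close for PTPRF and PTPRA. They were furthest apart, among members with over 100 counts in each library, for PTPRU.

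**Figure D3:**
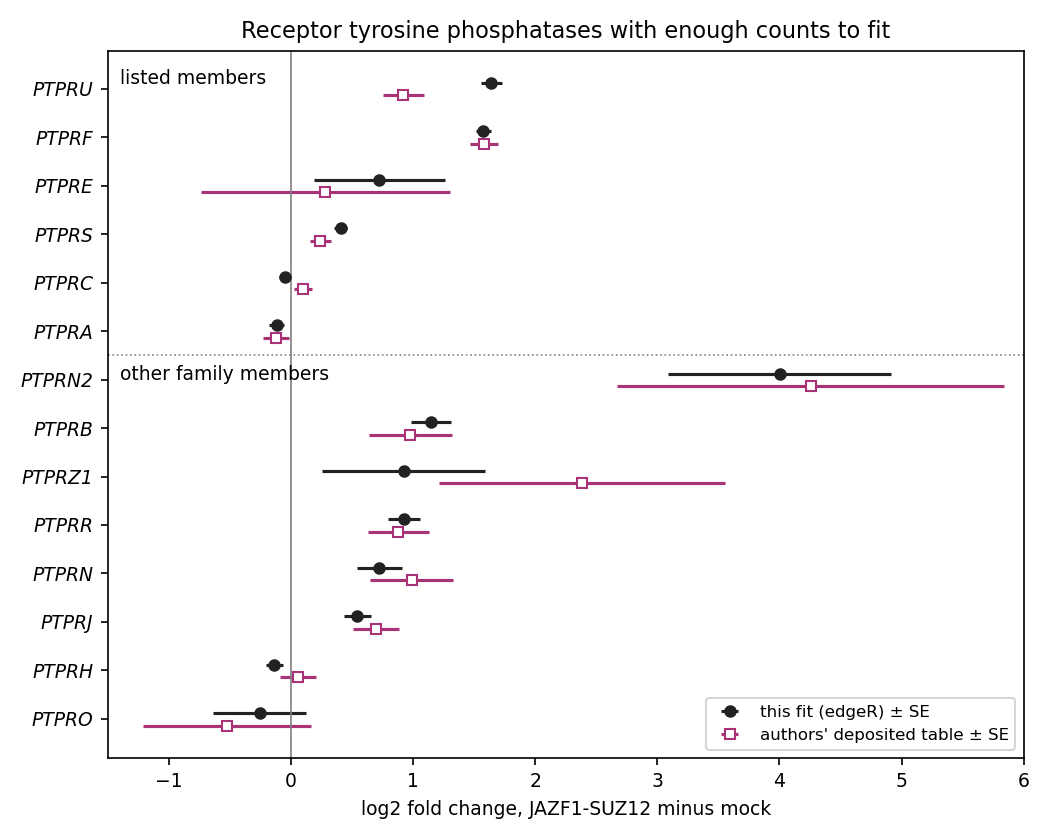
Log2 fold change, JAZF1-SUZ12 minus mock, (x axis) for the 14 receptor phosphatase genes in the fit, with standard errors as bars. Filled circles are from the counts by edgeR and open squares from the authors' deposited table. PTPRF has nearly the same value in both, PTPRU is 1.64 from the counts and 0.92 in the deposited table, and PTPRN2 and PTPRZ1 have wide errors.

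The cytosolic tyrosine phosphatases, 17 genes of the PTPN series, were read as a comparison with the membrane-bound ones. Of the 15 tested, 2 were called lower and none higher, beside 11.4% lower and 13.3% higher over all genes tested. Their median log2 fold change was -0.04. PTPN18 was at 96.3 ± 2.30 CPM in mock against 77.1 ± 2.93 CPM in JAZF1-SUZ12 (SD, n = 2 each; log2 fold change -0.34, edgeR adjusted p = 0.00051). PTPN1 (PTP1B), a phosphatase of the endoplasmic reticulum that acts on the insulin receptor and on BCR-ABL, changed by -0.17 on the log2 scale (edgeR, adjusted p = 0.032). The call of PTPN1 was lost without JAZF1-SUZ12 replicate 2 (adjusted p = 0.257), without mock replicate 1 (0.053) and without mock replicate 2 (0.183), and with DESeq2 (0.0688). No test compared the receptor with the cytosolic list.

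Outside the cell, 34 ligands and binding partners were listed, of which 16 were tested. The test called 5 of these 16 higher and 3 lower, beside 13.3% higher and 11.4% lower over all genes tested. Their median log2 fold change was 0.15. The list holds 12 heparan sulfate proteoglycans, some of which bind the LAR subfamily, and of the 8 tested SDC1, GPC1, SDC3 and SDC2 were called higher and SDC4, GPC2, AGRN and HSPG2 were not called. SDC1 (syndecan-1) had 31 and 16 counts in mock and 155 and 198 in JAZF1-SUZ12 libraries, and its log2 fold change came to 2.89 (SE 0.28; edgeR, adjusted p = 1.6e-06). GPC1 (glypican-1) had 49 and 60 counts in mock and 128 and 194 in JAZF1-SUZ12 libraries, and its log2 fold change came to 1.54 (SE 0.21; edgeR, adjusted p = 6.58e-05). SDC3, the most abundant syndecan by counts, was at 75.8 ± 2.96 CPM in mock against 96.9 ± 0.344 CPM in JAZF1-SUZ12 (SD, n = 2 each; edgeR, adjusted p = 0.000544). The authors' deposited table called SDC1 and GPC1 higher, and it did not call SDC3 (adjusted p = 0.111) or LRRC4B (0.082).

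SDC2 had 5 and 10 counts in mock and 31 and 30 in JAZF1-SUZ12 libraries, a change of 2.02 on the log2 scale (edgeR, adjusted p = 0.0127). It was below the filter's level in both mock libraries, so it entered the fit only through the group where it was higher and had to differ. Without it and NTRK3, which reached that level in 1 library of each group, 4 of 14 partners were called higher and 3 lower. SDC2 lost the call without JAZF1-SUZ12 replicate 1 (adjusted p = 0.0937) and without mock replicate 1 (0.0712), and in the authors' deposited table its adjusted p was 0.557. LRRC4B (NGL-3), a synaptic adhesion protein that binds the LAR subfamily, rose by 0.35 on the log2 scale (edgeR, adjusted p = 0.00167). The secreted proteoglycans AGRN and HSPG2, at 225 ± 9.29 and 203 ± 17.1 CPM in mock (SD, n = 2 each), did not pass (edgeR, adjusted p = 0.206 and 0.511), nor did SDC4 (0.826) and GPC2 (0.587). The genes called lower were LGALS1, a galectin that binds glycans of CD45, MDK, the midkine that binds PTPRZ1, and LRFN4, a synaptic partner of the LAR subfamily. Their log2 fold changes were -0.39, -0.27 and -0.41 (edgeR, adjusted p = 5.62e-05, 0.000581 and 0.00073). The authors' deposited table called these 3 lower, and also NTRK3 (log2 fold change -4.05, adjusted p = 0.00341). NTRK3 had 11 and 10 counts in mock and 9 and 7 in JAZF1-SUZ12 libraries. From these counts its log2 fold change was -0.38, not called (edgeR, adjusted p = 0.723).

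Inside the cell, 13 of 17 cytoplasmic partners and junction substrates were tested. The test called 5 higher and none lower, beside 13.3% higher and 11.4% lower over all genes tested. The median log2 fold change was 0.12. Liprin-alpha proteins are scaffolds that bind the second phosphatase domain of the LAR subfamily. PPFIA4, a liprin-alpha gene, had 384 and 302 counts in mock and 615 and 1138 in JAZF1-SUZ12 libraries. Its log2 fold change came to 1.31 (SE 0.12; edgeR, adjusted p = 1.58e-06). PPFIBP1 and PPFIBP2, the liprin-beta genes, rose by 0.69 and 1.18 on the log2 scale (edgeR, adjusted p = 0.00193 and 0.00317). PPFIA1, the liprin named for its binding to LAR, was at 65.6 ± 0.269 CPM in mock against 72.3 ± 0.593 CPM in JAZF1-SUZ12 (SD, n = 2 each) and was not called (edgeR, adjusted p = 0.16), nor was PPFIA3 (adjusted p = 0.0676). PPFIBP2, PPFIA1, PPFIA3, AGRN, HSPG2, SDC4, GPC2 and NTRK3 lie outside the rule for named genes, as does SDC2, and were picked out after their values were seen.

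TRIO, a guanine nucleotide exchange factor first found through its binding to LAR, was at 19.5 ± 0.461 CPM in mock against 28.7 ± 3.41 CPM in JAZF1-SUZ12 (SD, n = 2 each; log2 fold change 0.54, edgeR adjusted p = 0.000607). CTNND1 (p120 catenin), a junction protein dephosphorylated by several receptor phosphatases, rose by 0.31 on the log2 scale (edgeR, adjusted p = 0.00273). DESeq2 run on the counts did not call CTNND1 (adjusted p = 0.0882), and the authors' deposited table did (log2 fold change 0.27, adjusted p = 0.0358). The beta-catenin gene CTNNB1, also chosen after its values were seen, was at 251 ± 6.78 CPM in mock against 261 ± 8.13 CPM in JAZF1-SUZ12 (SD, n = 2 each; edgeR, adjusted p = 0.659).

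PTPRA and PTPRC act on the inhibitory tyrosine of Src-family kinases. Of 12 listed genes, these kinases and their regulators, 8 were tested. The test called 1 higher and 3 lower, beside 13.3% higher and 11.4% lower over all genes tested. Their median log2 fold change was -0.03. YES1 was at 193 ± 1.45 CPM in mock against 155 ± 2.24 CPM in JAZF1-SUZ12, and CSK, the kinase that places the inhibitory phosphate, at 101 ± 0.393 and 82.7 ± 2.37 CPM (SD, n = 2 each). Their log2 fold changes were -0.34 and -0.31 (edgeR, adjusted p = 9.14e-05 and 0.000592). LYN, the main Src-family kinase of myeloid cells, changed by -0.16 and FYN by 0.21 (edgeR, adjusted p = 0.0266 and 0.034). LYN lost its call when any one library was left out (adjusted p from 0.0513 to 0.146) and with DESeq2 (0.0579). FYN lost its call without JAZF1-SUZ12 replicate 1 (adjusted p = 0.22), mock replicate 1 (0.128) or mock replicate 2 (0.0586), and with DESeq2 (0.144). In the authors' deposited table both were called, with log2 fold changes of -0.29 and 0.50.

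**Figure D4:**
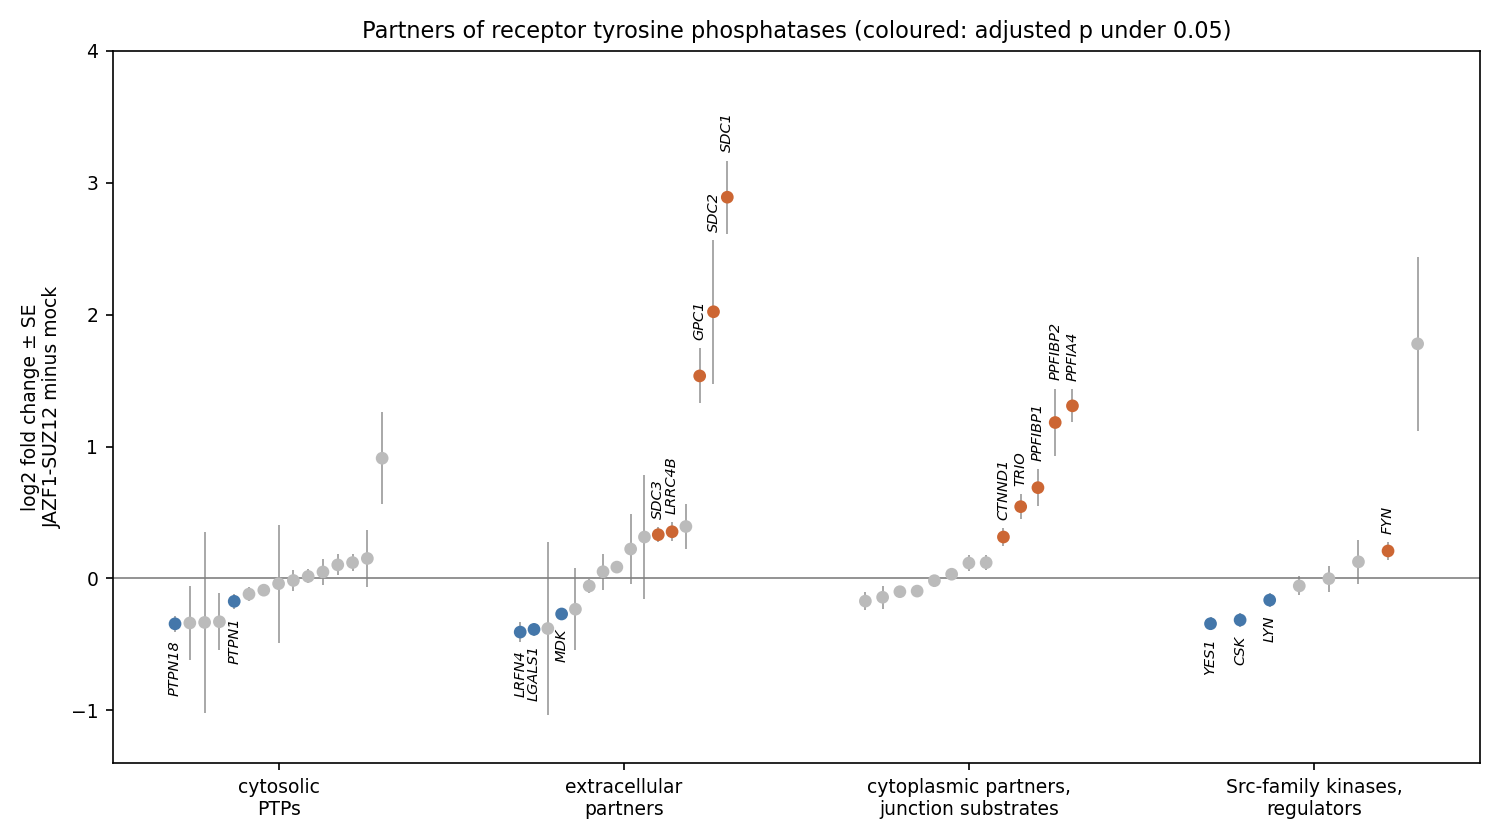
Log2 fold change, JAZF1-SUZ12 minus mock, (y axis, bars are standard errors) for the tested genes of 4 lists, each ordered by value. Orange points were called higher and blue points lower at an adjusted p under 0.05, and grey points were not called. SDC1, SDC2 and GPC1 among extracellular partners and PPFIA4 and PPFIBP2 among cytoplasmic ones have the largest changes of the called genes.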

How the data were processed

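The members and gene lists were chosen with earlier results of these data known. The authors deposited estimated counts per gene, not normalized. The submitters' processing notes name fastp 0.20.1, FastQC 0.11.7, MultiQC 1.5, kallisto 0.46.2, DESeq2 1.30.1 and the build hg38; the annotation and any use of strand are not given in the sources used here. Between 27.2% and 30.8% of values per library were more than 0.01 from a whole number. The design had assumed counts, so they were rounded. The authors' deposited table holds a mean signal of depth-scaled counts, log2 fold changes with standard errors, a score (the test statistic) and p-values, per the file headers.

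Genes were filtered with filterByExpr (14750 kept), scaled by TMM and tested with edgeR 4.0.16 (quasi-likelihood F test, two-sided, Benjamini-Hochberg over all genes, threshold 0.05) in R 4.3.3, with all 4 libraries and group as the only term. The SE of a log2 fold change was taken as its size over the root of F. Values in CPM are per total count. TPM used the longest transcript of GENCODE 29 on GRCh38, to which 35410 of 35606 IDs matched, and gene positions are from there. RefSeq promoters matched 10 members. Protein sequences were not analysed here. A library with at most 3 counts was at the floor, and limits cover counting error only. Alternatives were other scalings, DESeq2 1.42.0, no filter, the replicate number as a block and leaving out each library. The fit was tested on simulated data. Named genes were the 10 members, the 10 other receptor phosphatases and up to 4 called genes per direction in each further list, by smallest p.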

Additional observations from a re-analysis of the deposited data

How the results depend on the processing

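The log2 fold changes of the 6 members in the fit were recomputed under 9 alternatives. Since the same comparison chose the members, whether they passed again carries no test and is not counted. The 1 change of sign was that of PTPRC, which was not called, without mock replicate 1 (0.0011). Under the alternatives, 297 values of 33 genes were followed. Of these, 280 were labelled unchanged, 279 of them with the same sign, and 17 lost a call without a change of sign. Outside the members, unchanged meant the same side of the threshold. For members it meant a shift smaller than the spread between libraries. Leaving out 1 library could hardly exceed that spread, so nothing is read from the label of the members. With DESeq2, 2407 genes were called in place of 3643, and the cause was not tested. With DESeq2, 1 cytosolic phosphatase and 2 Src-family genes or regulators were called. Leaving out 1 library, with the lone library of a group assumed to vary like the other group, gave from 2455 to 3734 genes over all genes, from 4 to 5 of the other receptor phosphatases, from 1 to 2 cytosolic phosphatases, from 7 to 8 extracellular partners, from 5 to 6 cytoplasmic partners and from 2 to 3 Src-family genes. Same-numbered libraries did not deviate together (correlation -0.00073 over 14750 genes). With replicate number as a block the fit called 4061 genes. Of the 33 genes followed, those outside the members kept their calls. The cytoplasmic partners went from 5 called to 6, 5 higher and 1 lower, so a gene that was not followed gained a call. With 2 libraries a group, genes under about 20 counts a library have wide errors, as PTPRE and PTPRZ1 show.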
